A study of Mus musculus with 9 samples.

Results

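DNA damage response and repair genes were followed through haematopoietic stem cells (HSCs) of young mice, of old mice and of old mice with an inhibitor of sphingosine kinase 2. The set comprised 37 genes chosen by symbol, from the damage kinases to the excision repair enzymes, and was taken as every row of the deposited count table that carries one of these symbols. These symbols were found on 38 of the 23317 rows, because Pms2 stands on 2 rows. The second Pms2 row belongs to Rsph10b in the annotation used here, lay between 0.046 and 0.412 CPM (counts scaled to the library size) and did not pass the filter on low counts, so that 37 rows, 1 for each gene, were among the 14227 genes tested.

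HSCs are the bone marrow cells that replenish all blood lineages. The cells came from wild-type mice, 1500 sorted cells to a library, and the 9 libraries formed 3 groups of 3: young HSC (yHSC), old HSC (oHSC) and old HSC with ABC294640 (oHSC_ABC), which the submitters name as a specific SphK2 inhibitor. The protocol gives ages of 2 to 4 and 20 to 24 months, read here as the young and the old mice. The sources used here state no dose, route or duration of the inhibitor and no markers for the sort. Whether replicate libraries are from different mice is not labelled, and the p-values therefore cover the spread among these samples alone, which could be technical.

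DNA is broken and altered in every cell, and each kind of lesion has its own repair pathway. Double-strand breaks are joined end to end or copied from the sister chromatid, crosslinks are opened by the Fanconi anaemia proteins, wrongly paired bases are removed by mismatch repair, single altered bases by base excision and bulky lesions by nucleotide excision. HSCs depend on these pathways: inherited loss of Fanconi anaemia genes leads to bone marrow failure, and quiescent HSCs, which lack a sister chromatid, rely on end joining for breaks.

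Each library held 16663559 to 23254225 counts, and variation between replicates, as a common biological coefficient over the 14227 genes, was 0.0583. Transcripts that mark HSCs and early progenitors were present, Kit at 112 to 124 CPM in all 9 libraries. The summed level of 12 HSC markers was 608 to 620 CPM in young, 509 to 521 in old and 527 to 534 in treated old libraries, and 2 of them rose and 6 fell between young and old. The sum of 10 granulocyte markers stood far above it in all libraries, at 32900 to 37000 CPM in young, 50700 to 53900 in old and 50500 to 51700 in treated old libraries, with 9 of the 10 higher in old. Mpo and Elane made up the larger part of the granulocyte sum, with young means of 11300 and 11100 CPM. S100a8 averaged 2210 CPM in young and 4530 CPM in old, and Ltf 36.8 and 35.4 CPM. Whether these transcripts came from mature granulocytes or from earlier myeloid cells was not tested. The sum of the erythroid markers was 1740 to 1780, 992 to 997 and 1090 to 1100 CPM in young, old and treated old libraries. Of the 8 tested, 1 was higher and 7 lower in old. Defining markers of other cells, Ms4a1 and Pax5 of B cells, Cd3e and Cd3g of T cells, Ncr1 and Gzma of NK cells and Slc4a1 of red cells, stayed under 1 CPM in all libraries. Other markers of those lists were expressed. The T and NK cell markers summed to 1330 to 1490 CPM in young, 1740 to 1890 in old and 1900 to 2070 in treated old libraries, nearly all of it Nkg7, and 1 rose and 1 fell (Cd8a) between young and old of the 6 tested. The B and plasma cell markers summed to 187 to 208, 195 to 197 and 185 to 187 CPM, with 2 higher in old (Jchain and Mzb1) and 2 lower (Ighm and Ebf1) of the 7 tested. The Y-linked gene Ddx3y lay at 0.664 to 1.18 CPM in young and 35.9 to 44.7 CPM in old libraries, and age and apparent sex therefore cannot be told apart. The part of these differences in the results below was not tested.

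Old against young HSC asks which repair genes differ between these groups, in which age and apparent sex go together. Of the 37 genes, 3 rose in old HSC (Xpc, Ddb2 and Xrcc5), 2 fell (Xrcc4 and Atm) and 32 did not pass the threshold, an adjusted p under 0.05 (edgeR, quasi-likelihood, adjusted by Benjamini and Hochberg over all 14227 genes). These 5 are 13.5% of the set, against 39.4% of all genes tested, of which 19.6% were higher and 19.8% lower. At an unadjusted p under 0.05 there were 10 of the 37, against 47.8% of all genes. The median absolute log2 fold change of the set was 0.114, against 0.23 over all genes, and 2 of the 37 (5.41%) changed by more than 0.5, against 24% of all genes. The precision was not lower: the median standard error was 0.0853 for the set and 0.105 for all genes, and the median level was 22.3 against 13.3 CPM. For 29 of the 37 genes the 95% interval of the log2 fold change lay wholly within 0.5 of 0, and for 15 within 0.25. The 8 with a wider interval or a larger change were Atm, Ddb2, Ercc2, Fanci, Lig4, Xpc, Xrcc4 and Xrcc5. In bulk samples, fewer cells of a type and less RNA per cell cannot be told apart.

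Leaving out young replicate 2 or old replicate 1 raised the count of genes called higher to 5, by adding Rad50 and Pms2, and leaving out young replicate 2 or old replicate 3 lowered the count called lower to 1, by losing Atm. Removing trends of log CPM on transcript length and GC content gave 12 genes higher and 1 lower in place of 3 and 2, while it turned the split over all genes from 2788 higher and 2818 lower to 4605 and 2112 and moved the median log2 fold change of all genes from -0.032 to 0.067.

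**Figure D1:**
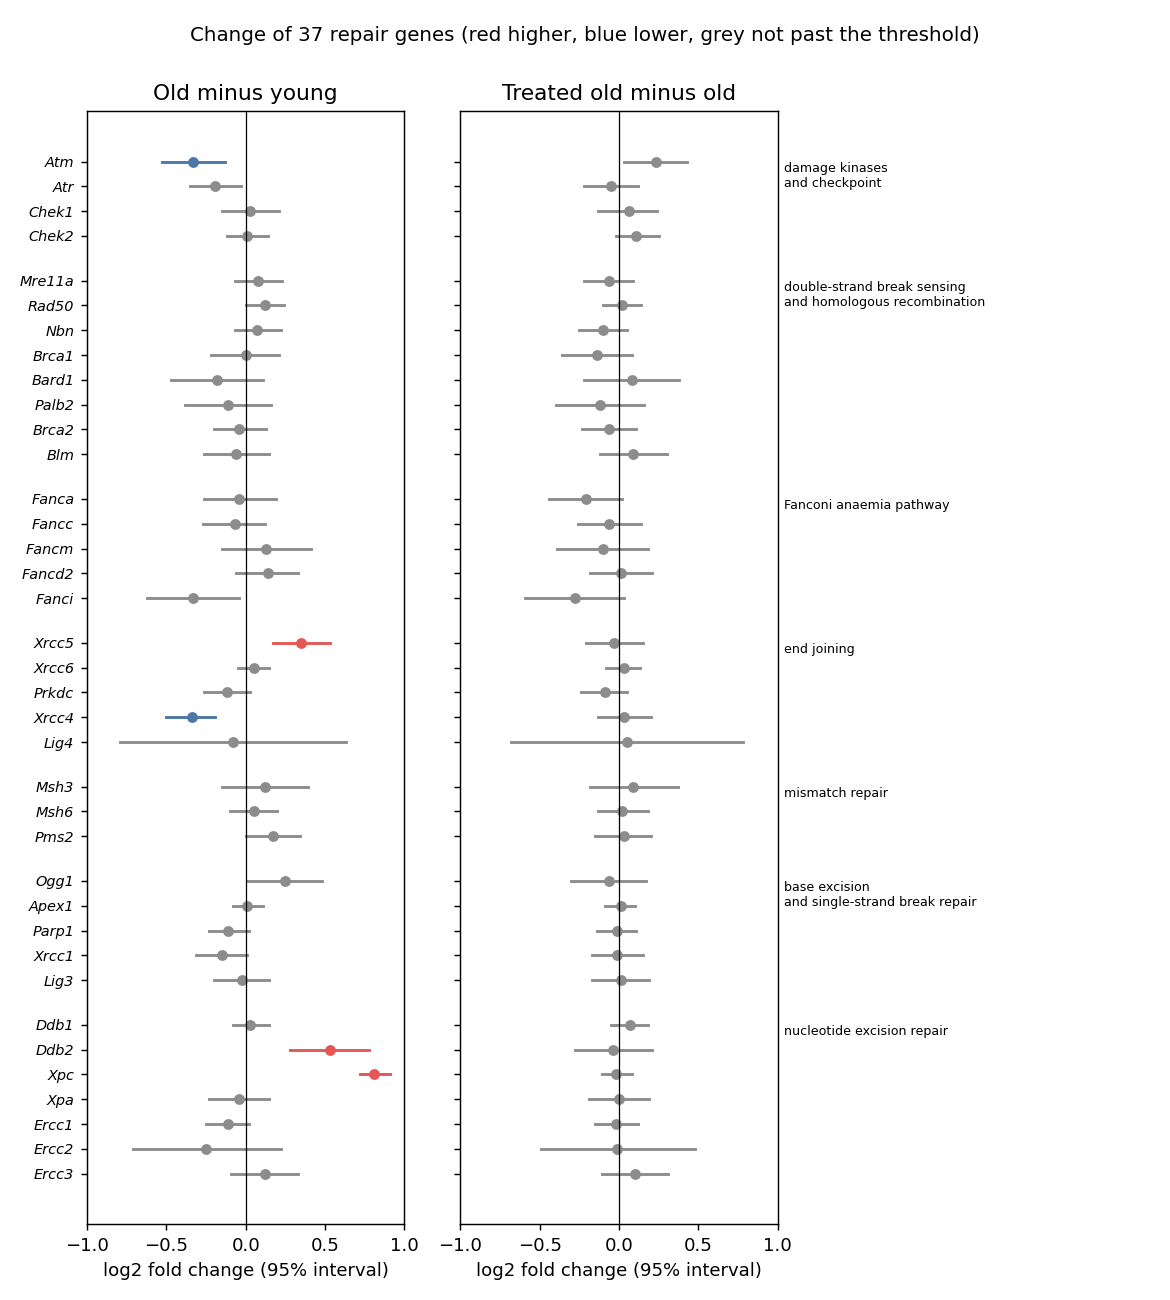
Log2 fold change of each of the 37 repair genes (x axis) with its 95% interval, by pathway, for old minus young (left) and treated old minus old HSC (right), where red is higher, blue lower and grey not past the threshold. Xpc stands farthest from 0 on the left at 0.81, the 5 coloured genes are all on the left, and no gene is coloured on the right.

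Nucleotide excision repair, which cuts out a stretch of strand around a bulky lesion such as those made by ultraviolet light, held the largest change among the 37 genes. Of its 7 members 2 rose and 0 fell (28.6%), against 39.4% of all genes tested, with 19.6% higher. The 2 that rose both encode damage sensors. Xpc encodes the protein that first recognises the distorted helix (ENSMUSG00000030094, GRCm38 chromosome 6, 91489305 to 91515888). Its level was 98.7, 99.7 and 101 CPM in the young libraries, 179, 177 and 169 CPM in the old and 173, 178 and 169 CPM in the treated old ones. All 6 old libraries lay above all 3 young ones by a distance many times the spread within a group. The means were 99.8 ± 1.08 and 175 ± 5.21 CPM (SD, n = 3), a 1.76-fold rise with a log2 fold change of 0.81 ± 0.045 (SE, adjusted p = 1.31e-11). Of all genes tested, 13.2% changed by more. No exon of another gene overlaps Xpc, and none of its 31-base words was found in transcripts of other genes.

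Ddb2, which binds ultraviolet photoproducts and hands them to XPC (ENSMUSG00000002109, chromosome 2, 91211572 to 91236982), was at 7.38, 10.7 and 9.48 CPM in young, 14.2, 11.8 and 13.7 CPM in old and 12.8, 13.2 and 12.7 CPM in treated old libraries. The young libraries lay below all old ones, with the highest young value close to the lowest old one. The mean of 9.20 ± 1.70 CPM in young rose 1.44-fold to 13.3 ± 1.27 CPM in old, a log2 fold change of 0.53 ± 0.12 (adjusted p = 0.00172). Its exons overlap those of Acp2 on the other strand over 652 bases, and Acp2 itself rose by less (log2 fold change 0.23, adjusted p = 0.0292). As the counting is not stated to use strand, reads from the shared bases cannot be told apart.

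The other members did not pass the threshold. Ddb1, which forms the damage-binding complex with DDB2 and the core of a cullin ubiquitin ligase, had a log2 fold change of 0.03 (adjusted p = 0.647). Per kilobase of transcript, the ratio of Ddb2 to Ddb1 was 0.256 to 0.366 in the young, 0.416 to 0.468 in the old and 0.394 to 0.434 in the treated old libraries. Ddb1 shares 328 exonic bases with Tkfc on the other strand, which rose (log2 fold change 0.45, adjusted p = 0.0428). Reads from these bases, and from those that Ddb2 shares with Acp2, enter the ratio and cannot be told apart. The later steps were also not past the threshold: Xpa, which verifies the lesion, the TFIIH helicase genes Ercc2 and Ercc3, and Ercc1, a subunit of the nuclease that cuts 5′ of the lesion, had log2 fold changes from -0.25 (Ercc2) to 0.12 (Ercc3). Xpa had the largest p of the pathway, with 21.9, 23.9 and 24.4 CPM in young, 20.9, 25.9 and 21.1 CPM in old and 21.0, 22.5 and 24.5 CPM in treated old libraries, ranges that overlap throughout. The summed level of the 7 genes was 257 to 259 CPM in the young libraries and 331 to 341 CPM in the old. Xpc alone, with means of 99.8 and 175 CPM, made up nearly all of the difference between the mean sums of 258 and 335 CPM.

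**Figure D2:**
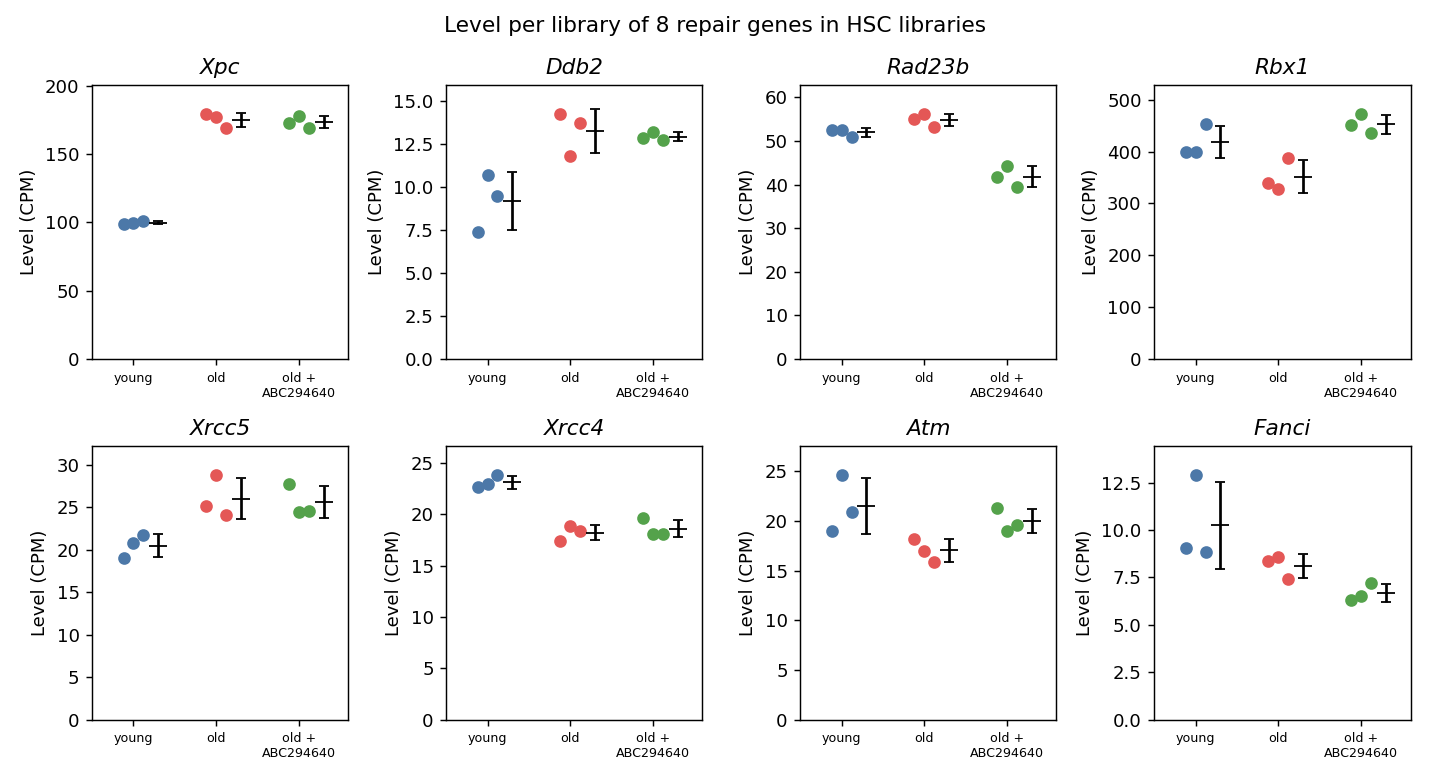
Level in CPM (y axis, from 0) of 8 repair genes in each library of the 3 groups, as points, with the group mean and SD (n = 3) as a bar beside them. Xpc, Ddb2 and Xrcc5 are higher and Xrcc4 lower in all old and treated old libraries than in any young one, whereas Rad23b is lower and Rbx1 higher in all treated old libraries than in any untreated old one.

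In end joining, the ligation of broken ends without a template, 1 member rose and 1 fell of 5. This is 40%, near the 39.4% of all genes tested. Xrcc5 encodes KU80, a subunit of the ring that slides onto a broken end (ENSMUSG00000026187, chromosome 1, 72307421 to 72394952). It measured 19.0, 20.8 and 21.7 CPM in young, 25.2, 28.8 and 24.1 CPM in old and 27.8, 24.4 and 24.6 CPM in treated old libraries. All old values lay above the young ones, and the 1.27-fold rise, from 20.5 ± 1.37 to 26.0 ± 2.47 CPM, had a log2 fold change of 0.35 ± 0.085 (adjusted p = 0.00284). Xrcc6, the gene of its partner KU70, had a log2 fold change of 0.05 (adjusted p = 0.426), and its exons overlap those of Desi1 over 344 bases on the other strand. Desi1 itself rose (log2 fold change 0.58, adjusted p = 1.57e-06), and reads from the shared bases, which also enter the ratio below, cannot be told apart. Per kilobase, the ratio of Xrcc5 to Xrcc6 was 0.267 to 0.315 in young, 0.341 to 0.398 in old and 0.329 to 0.382 in treated old libraries.

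Xrcc4 encodes the scaffold of the ligation complex (ENSMUSG00000021615, chromosome 13, 89774027 to 90089608). Its level was 22.6, 22.9 and 23.8 CPM in young, 17.4, 18.8 and 18.4 CPM in old and 19.6, 18.1 and 18.1 CPM in treated old libraries, with no overlap between young and old. The 1.27-fold fall, from 23.1 ± 0.596 to 18.2 ± 0.723 CPM, had a log2 fold change of -0.34 ± 0.076 (adjusted p = 0.00128). It shares 112 exonic bases with Tmem167 on the other strand, which had a log2 fold change of 0.01 (adjusted p = 0.835). Lig4, the ligase that XRCC4 holds, was the lowest of the 37 genes, at 1.2, 1.57 and 1.01 CPM in young, 0.941, 1.48 and 1.10 CPM in old and 1.10, 0.739 and 1.80 CPM in treated old libraries. These values rest on 12 to 35 counts a library, and the interval of its old against young log2 fold change, -0.79 to 0.63, leaves a change of the size seen for Xrcc4 undetectable at this depth. Prkdc, the kinase that the KU ring recruits, had a log2 fold change of -0.12 (adjusted p = 0.182), which became 0.28 (adjusted p = 0.00173) with the length and GC trends removed.

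The damage kinases start the signal, with ATM answering double-strand breaks and ATR answering single-stranded DNA, and the checkpoint kinases CHEK2 and CHEK1 relay it. Atm (ENSMUSG00000034218, chromosome 9, 53439149 to 53536740) was at 19.0, 24.6 and 20.9 CPM in young, 18.2, 17.0 and 15.9 CPM in old and 21.3, 19.0 and 19.6 CPM in treated old libraries. The young and old ranges did not overlap, though the lowest young library stood close to the highest old one, and the treated libraries overlapped the young ones. Atm fell 1.26-fold from 21.5 ± 2.87 to 17.0 ± 1.13 CPM, by 0.33 ± 0.095 on the log2 scale (adjusted p = 0.00922), a direction that turned to 0.04 (adjusted p = 0.74) with the length and GC trends removed. The call was also lost without young replicate 2 (-0.21, adjusted p = 0.0892) and without old replicate 3 (-0.27, adjusted p = 0.0659).

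Atm is a long gene, with a longest transcript of 9819 bases against a median of 3364 over all genes tested. Among genes with a transcript of 4806 bases or more, the median log2 fold change between old and young was -0.131, against -0.005 among those of up to 2153 bases, and the 13 repair genes in the long class had a median of -0.023. Atr, with 8102 bases, had a log2 fold change of -0.19 (adjusted p = 0.0603). Chek2 had the largest p of the kinases, with 42.8, 48.4 and 46.6 CPM in young, 44.8, 44.6 and 49.5 CPM in old and 50.7, 48.5 and 50.7 CPM in treated old libraries. Its interval between old and young, -0.12 to 0.14, was narrow. Chek1 had a log2 fold change of 0.03 (adjusted p = 0.84).

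Sequences upstream of the start site were in the RefSeq table (GRCm38.p6) for 30 of the 37 genes, and 150 bases before the start were searched on both strands for 6 short motifs. They are shown for Xrcc5 and Atm, the genes called in opposite directions for which such bases could be printed.
Xrcc5, chr1:72307271-72307420, plus strand: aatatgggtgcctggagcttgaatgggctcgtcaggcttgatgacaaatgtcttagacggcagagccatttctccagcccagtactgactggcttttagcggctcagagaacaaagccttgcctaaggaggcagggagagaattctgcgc
Atm, chr9:53536741-53536821, minus strand: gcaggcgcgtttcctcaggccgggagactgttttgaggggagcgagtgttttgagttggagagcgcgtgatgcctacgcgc
The Atm stretch is 81 bases long and ends 69 bases before the RefSeq start. Nothing is in capitals, because neither window holds any of the letters searched. Lig4 has 2 start sites in the table, which gave 31 windows. The GC box GGGCGG was in 19 of them (61.3%), against 28.6% of 32851 windows of the same length. CCAAT was in 10 (32.3% against 24.5%), the E-box CACGTG in 3 (9.68% against 4.3%), the ETS word CCGGAAGT in 2 (6.45% against 2.4%), the palindromic NRF1 consensus in 1 (3.23% against 0.645%) and the E2F words TTTCGCGC, TTTGGCGC, TTTCCCGC or TTTGCCGC in 1 (3.23% against 1.24%). Motifs were counted separately, so that 1 window can hold several and matches may overlap. A match describes the letters and is not evidence of a bound factor.

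None of the 8 genes of break sensing and homologous recombination passed the threshold, against 39.4% of all genes tested. Mre11a, Rad50 and Nbn, which form the complex that tethers broken ends and activates ATM, had log2 fold changes of 0.08, 0.12 and 0.07. Brca1, Bard1, Palb2 and Brca2, which act in the early steps of recombination, and the helicase gene Blm lay between -0.18 (Bard1) and 0.00 (Brca1). Brca1 measured 16.5, 15.3 and 20.5 CPM in young, 17.1, 17.1 and 18.1 CPM in old and 15.7, 17.4 and 14.5 CPM in treated old libraries. The old values all lie inside the young range, and the interval of the difference was -0.22 to 0.21. Brca2, a long transcript, had a log2 fold change of -0.04 that became 0.36 (adjusted p = 0.00115) with the length and GC trends removed.

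The Fanconi anaemia genes did not pass either, 0 of 5, against 39.4% of all genes tested. Their log2 fold changes ran from -0.33 (Fanci) to 0.14 (Fancd2). Fancm anchors the core complex on a stalled fork, Fanca and Fancc belong to that core, and Fancd2 and Fanci encode the pair that it ubiquitylates. Fanci was at 9.04, 12.9 and 8.84 CPM in young, 8.35, 8.56 and 7.41 CPM in old and 6.32, 6.53 and 7.19 CPM in treated old libraries. The 3 groups do not overlap, with 1 young library well above the other 2. The difference between old and young had an adjusted p of 0.0631. Fanci shares 921 exonic bases with Polg on the other strand, which had a log2 fold change of 0.11 (adjusted p = 0.429). Reads from those bases cannot be told apart. Fanca had the largest p, at 14.2, 18.2 and 14.3 CPM in young, 14.7, 15.4 and 15.4 CPM in old and 14.2, 11.3 and 13.7 CPM in treated old libraries. Per kilobase, the ratio of Fanci to Fancd2 was 0.731 to 1.10 in young, 0.516 to 0.723 in old and 0.488 to 0.511 in treated old libraries.

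Mismatch repair and base excision repair had no member past the threshold, 0 of 3 and 0 of 5, against 39.4% of all genes tested. So few genes do not describe a pathway. Msh6 and Msh3 encode the partners that recognise mismatches and small loops, and Pms2 a subunit of the nuclease that nicks the strand. Their log2 fold changes were 0.05, 0.12 and 0.17, and Msh6 shares 10.7% of its 31-base words with other genes. Msh6 measured 31.6, 33.4 and 28.2 CPM in young, 32.7, 30.7 and 33.2 CPM in old and 32.1, 33.8 and 32.1 CPM in treated old libraries, which overlap.

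In base excision, Ogg1, the glycosylase for oxidised guanine, had a log2 fold change of 0.25 (adjusted p = 0.0866). Apex1, which cuts the strand at the site left without a base, was the most abundant of the 37 genes, at 228 ± 9.96 CPM in young and 230 ± 6.27 CPM in old HSC (log2 fold change 0.01 ± 0.045), and 5.3% of its words recur in other genes. Parp1, which marks strand breaks with ADP-ribose, the scaffold gene Xrcc1 and the ligase gene Lig3 had log2 fold changes of -0.11, -0.15 and -0.02. Lig3 measured 24.1, 24.0 and 21.0 CPM in young, 21.7, 22.5 and 23.7 CPM in old and 20.5, 25 and 23.1 CPM in treated old libraries. It shares 1826 exonic bases with Rffl on the other strand, which rose (log2 fold change 0.23, adjusted p = 0.0363), and those reads cannot be told apart. Exons of other genes also overlap, among others, Ercc2 over 1780 bases, Fancc over 1558, Fanca over 920 and Apex1 over 877.

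**Figure D3:**
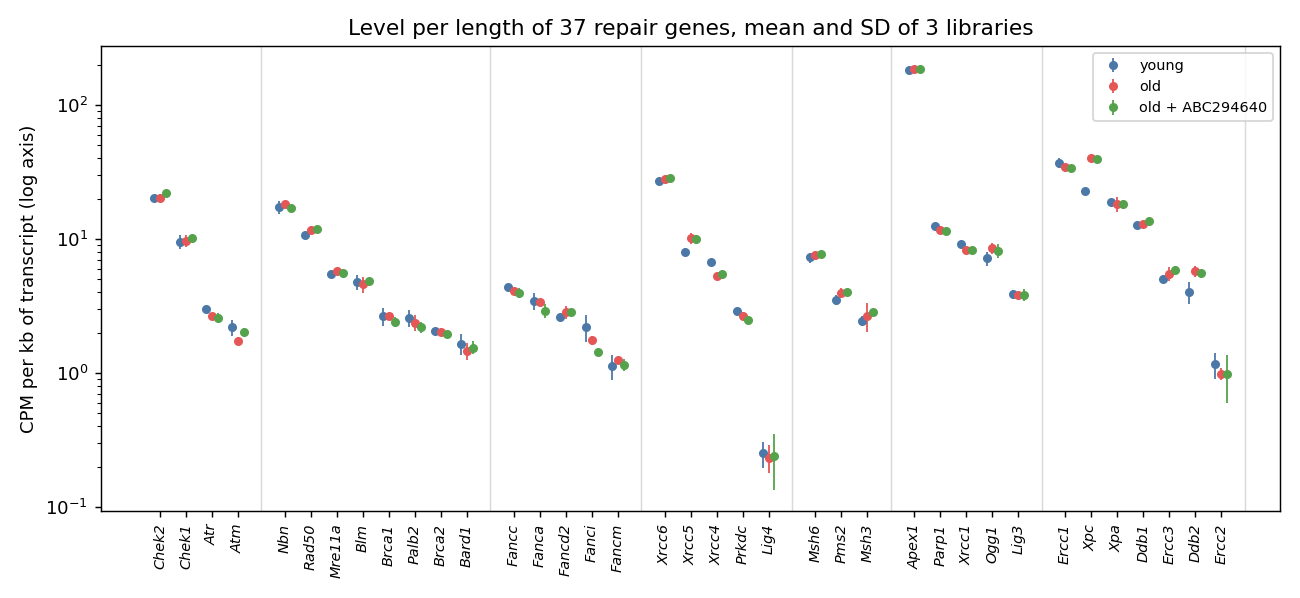
Mean level per kilobase of the longest transcript (y axis, log scale) with SD (n = 3) for the 37 repair genes in the 3 groups. From left to right the vertical lines part kinases and checkpoint, break sensing and recombination, Fanconi anaemia, end joining, mismatch repair, base excision and nucleotide excision, and within each pathway genes are in order of the young level, from Apex1 at 184 to Lig4 at 0.251 CPM per kilobase.

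Compared per length, the levels of the 37 genes in young HSC spanned from 184 ± 8.04 CPM per kilobase (Apex1) to 0.251 ± 0.0563 (Lig4), with a median of 4.78. After Apex1 came Ercc1 at 37.1 ± 3.16, Xrcc6 at 27.0 ± 1.01, Xpc at 23.0 ± 0.249 and Chek2 at 20.2 ± 1.26 CPM per kilobase. Chek2 and the next gene, Xpa at 18.8 ± 1.06, did not differ beyond their spread. At the low end were Ercc2 at 1.16 ± 0.251 and Fancm at 1.13 ± 0.243, whose spreads overlap.

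Libraries of young and old HSC did not overlap for 11 of the 37 genes (29.7%), 4 with higher and 7 with lower levels in old, against 48.4% of all genes tested (22.8% higher and 25.6% lower). Besides the 5 that passed, these were Mre11a, higher in old, and Atr, Fancc, Fanci, Parp1 and Xrcc1, lower in old. A further 119 genes of the same 7 pathways passed the filter of 121 listed, and of them 21 rose and 12 fell, or 27.7%, against 39.4% of all genes. Their median absolute log2 fold change, 0.124, was near that of the 37.

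**Figure D4:**
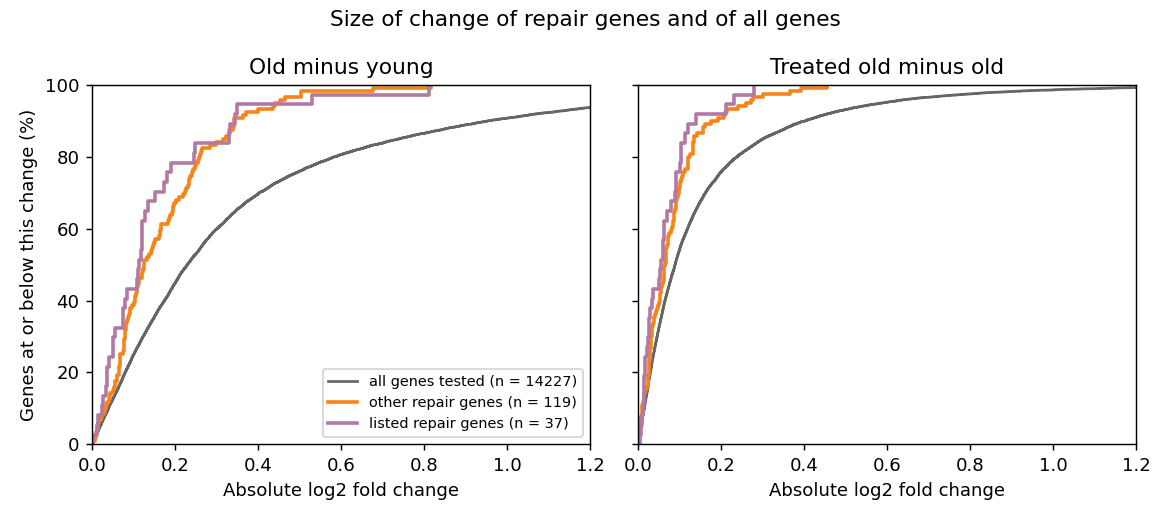
Share of genes (y axis, %) whose absolute log2 fold change is at or below the value on the x axis, for the 37 listed repair genes, 119 other repair genes and all 14227 genes tested, between old and young (left) and treated old and old HSC (right). Both repair curves rise to the left of the curve of all genes, with medians of 0.114, 0.124 and 0.23 on the left panel.

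Among these other genes, 3 rose and 4 fell of the 16 of damage signalling and checkpoint. This share, 43.8%, was near the 39.4% of all genes tested. In recombination it was 25%, in the Fanconi anaemia pathway 31.2% and in end joining 14.3%. In mismatch repair it was 0%, in base excision 30% and in nucleotide excision 35%. Rad1, a subunit of the clamp loaded at damaged DNA, fell by 0.82 ± 0.083 on the log2 scale (35.9 ± 1.90 CPM in young, 20.3 ± 1.25 CPM in old, adjusted p = 1.24e-07), and Rad17, which loads it, rose from 35.0 ± 0.392 to 44.3 ± 1.70 CPM. In recombination 5 rose and 2 fell of 28, among them Rad51d, which acts in homologous recombination, from 17.7 ± 1.26 to 23.0 ± 0.594 CPM. Of the Fanconi anaemia genes 2 rose and 3 fell of 16. Fancl, the ubiquitin ligase of the core, fell from 39.9 ± 1.21 to 29.1 ± 0.954 CPM, and Wdr48, a cofactor of the opposing protease, rose from 24.4 ± 1.75 to 31.4 ± 0.700 CPM.

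In end joining Paxx, a binding partner of the KU ring, was the 1 gene of 7 that rose, with 26.4 ± 3.17 CPM in young and 31.8 ± 2.70 CPM in old (adjusted p = 0.0189), a call lost without young replicate 2 (0.055), young replicate 3 (0.0729) or old replicate 3 (0.08). None of 12 mismatch repair genes passed by edgeR, with 3 at an unadjusted p under 0.05. In base excision 5 rose and 1 fell of 20, with the thymine glycosylase gene Tdg from 35.7 ± 0.968 to 49.3 ± 2.62 CPM. Tdg is to be read with caution, because 41.8% of its 31-base words are also found elsewhere, most of all in Tdg-ps. In nucleotide excision 5 rose and 2 fell of 20, with the TFIIH subunit gene Gtf2h1 from 39.2 ± 2.01 to 49.7 ± 3.73 CPM and Cul4a, the cullin that carries DDB1 and DDB2, falling from 44.1 ± 0.55 to 33.5 ± 1.59 CPM.

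Of 20 genes of DNA replication, 5 rose and 4 fell in old HSC, where 39.4% of all genes tested were called. Their summed level was 2780 to 2800 CPM in young, 3020 to 3060 in old and 3040 to 3070 in treated old libraries. The part of cell cycle differences in the changes above was not tested.

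Treated old against untreated old HSC asks what the inhibitor changed. None of the 37 genes passed the threshold by edgeR, against 1.19% of all genes tested (0.766% higher and 0.429% lower). At an unadjusted p under 0.05 there was 1 gene, against 8.83% of all genes. It was Atm (log2 fold change 0.23 ± 0.098, adjusted p = 0.459), and DESeq2 called 0 of the 31 to which it gave an adjusted p. The lowest adjusted p of any of the 37 genes under 18 other settings was 0.219, for Atm. The median absolute log2 fold change was 0.0551, against 0.0886 over all genes.

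For 35 of the 37 genes the 95% interval lay within 0.5 of 0, and for 21 within 0.25, the 2 wider ones being Fanci (-0.59 to 0.03) and Lig4 (-0.68 to 0.78). Among the genes called between old and young HSC, the intervals were -0.11 to 0.08 for Xpc and -0.28 to 0.21 for Ddb2. They were -0.21 to 0.15 for Xrcc5, -0.13 to 0.20 for Xrcc4 and 0.03 to 0.43 for Atm. The interval for Xpc does not reach the young level, which would be a log2 difference from old of -0.81. Libraries did not overlap for 4 genes (10.8%), against 15.5% of all genes (8.34% higher and 7.13% lower). Atm was higher and Nbn, Fanca and Fanci were lower in all treated libraries.

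Of the 119 other pathway genes, 1 rose and 1 fell with the inhibitor, both in nucleotide excision repair. These are 1.68% of the 119, near the 1.19% of all genes tested. They fall outside the rule for naming genes and were chosen after their values were seen. Rad23b encodes the partner that stabilises XPC in the sensor complex (ENSMUSG00000028426, chromosome 4, 55350043 to 55392237). It was at 52.5, 52.6 and 50.8 CPM in young, 55.1, 56.1 and 53.2 CPM in old and 41.8, 44.3 and 39.4 CPM in treated old libraries. The treated libraries lay below all others, and the 1.31-fold fall from 54.8 ± 1.47 to 41.8 ± 2.44 CPM had a log2 fold change of -0.39 ± 0.059 (adjusted p = 0.0013), with no exon shared with another gene.

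Rbx1, the RING subunit through which cullin ligases such as the one with DDB1 and DDB2 act (ENSMUSG00000022400, chromosome 15, 81466296 to 81476369), measured 400.0, 400.0 and 454 CPM in young, 340.0, 327 and 388 CPM in old and 451, 472 and 436 CPM in treated old libraries. It was lower in old than in young HSC (log2 fold change -0.25 ± 0.060, adjusted p = 0.00269) and 1.29-fold higher with the inhibitor (0.36 ± 0.060, adjusted p = 0.00267), with 5.2% of its words in other genes, Rbx1-ps first. Its call between old and young was lost with the length and GC trends removed (adjusted p = 0.0732). Both genes kept their call with the inhibitor under all 18 other settings, with adjusted p up to 0.015 for Rad23b and 0.0347 for Rbx1. Over all genes, the number called higher went from 109 to 175 without young replicate 1 and to 52, 40, 31 and 17 without old replicates 1 and 2 and treated replicates 1 and 2, and the number called lower from 61 to 111, 39, 37, 38 and 31.

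Treated old against young HSC shares its libraries with both comparisons above, so its values are given beside them and not as further support. Of the 37 genes, 3 were higher and 4 lower (18.9%), against 37.6% of all genes tested (19.1% higher and 18.5% lower). At an unadjusted p under 0.05 there were 12, against 46.2% of all genes. Libraries did not overlap for 17, 9 higher and 8 lower (45.9%), against 48.4% of all genes (23.7% higher and 24.7% lower). Xpc (log2 fold change 0.80), Ddb2 (0.49), Xrcc5 (0.32) and Xrcc4 (-0.31) were called as in untreated old HSC. The other 3, outside the rule and named after their values were seen, were Fanci (-0.61 ± 0.14, adjusted p = 0.00208), Atr (-0.24 ± 0.079, adjusted p = 0.0215) and Prkdc (-0.21 ± 0.069, adjusted p = 0.0212). Atm was not called in it (-0.10, adjusted p = 0.422), and with the length and GC trends removed it, Atr, Prkdc and Brca2 had the opposite sign (0.30, 0.16, 0.22 and 0.33).

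Fanci kept its call against young HSC under all 18 other settings, none of which separates its reads from those of Polg. Atr and Prkdc each kept the lower call under 10, and Prkdc was called higher under the 2 settings with length and GC trends removed. The number called lower was 2 without young replicate 2 or treated replicate 2. The number called higher was 5 without young replicate 2, old replicate 1 or old replicate 3. That Fanci, Atr and Prkdc passed against young HSC in the treated and not in the untreated old libraries does not show that the treated differed from the untreated ones, where their own differences had adjusted p of 0.632, 0.936 and 0.795.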

How the data were processed

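Poly(A) RNA of 9 libraries was sequenced. The table deposited by the authors holds expected counts per gene and library, not normalized, made per the submitters' processing notes with edgeR 3.24.3, HTSeq 0.10.0, STAR 2.6.1d and Trim Galore 0.6.2 on build mm10, listed there with neither role nor order. Of its non-zero values 56% were whole to within 1e-06, and no source used here names the step that left fractions. Values were rounded and tested with edgeR 4.0.16 in R 4.3.3 (TMM, filter by group, quasi-likelihood test, all 9 libraries in 1 fit with group as the only term, Benjamini-Hochberg over 14227 genes). CPM use TMM library sizes. Intervals of 95% use the fit's degrees of freedom. All 23317 gene identifiers matched GENCODE mouse release M21 (GRCm38), the source of coordinates, of overlaps between exons and of transcript lengths. Levels per kilobase use the longest transcript.

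Groups and replicate numbers came from the sample titles. Values per library are given for the genes called between old and young HSC (up to 3 a pathway) and for the gene of largest p in each pathway, and Fanci was added after its values were seen. Of the other pathway genes up to 2 called a pathway are named, and some are not reported here. The members and lists were chosen with earlier results of these data known. Other settings were RLE size factors, DESeq2 1.42.0, no filter, at least 5 CPM in 3 libraries, the 2 groups alone, a replicate block, loess trends on transcript length and GC content, and each library left out, and, chosen after seeing the data, robust trends centred within each library. Simulated counts were used to check the scripts. Mismatch repair and damage signalling genes outside the lists were not analysed here.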

Additional observations from a re-analysis of the deposited data

How the results depend on the processing

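Between old and young HSC, Xpc, Ddb2 and Xrcc5 kept their call under all 18 other settings, Xrcc4 under 17 and Atm under 13. The numbers of the 37 genes called higher and lower were 3 and 2. Higher calls numbered 6 without a filter, 12 with length and GC trends removed, 13 with the replicate block as well and 5 with robust centred trends (3 to 5 with a library left out). Lower calls numbered 6 with the stricter filter, 1 with trends removed and 0 with the block as well (1 to 3). Against young HSC, treated old HSC had 7 higher without a filter, 17 with trends removed, with or without the block, and 5 with robust trends (3 to 5), and 2 lower by DESeq2, without a filter and with trends removed, with or without the block, and 8 with the stricter filter (2 to 5).

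Over all genes, old against young gave 4605 higher with trends removed, 4601 with the block as well (2522 to 3005), and 1842 lower by DESeq2 (2155 to 2816). Treated against untreated old gave 219 higher and 114 lower without a filter, 164 and 96 with the 2 groups alone, and 100, 103 and 105 lower with trends, trends and block, and robust trends (17 to 175 higher, 31 to 111 lower). Treated old against young gave 4785 and 4797 higher with trends without and with the block (2371 to 2962) and 1732 lower with the stricter filter (2054 to 2683). With trends removed, log2 fold changes turned, without and with the block, for old against young to 0.04 and 0.04 (Atm), 0.36 and 0.36 (Brca2) and 0.28 and 0.28 (Prkdc), and for Atr to 0.19 with both. For treated old against young they turned to 0.30 and 0.30 (Atm), 0.16 and 0.16 (Atr), 0.33 and 0.33 (Brca2) and 0.22 and 0.22 (Prkdc), and to 0.00 for Prkdc with robust trends. The plain trends moved the median of all genes to 0.067 and the robust ones to -0.036, from -0.032, and the cause was not tested further.

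Same-numbered libraries of different groups had deviations correlated at -0.081 to 0.132 over 9 pairs, and differently numbered ones at -0.096 to 0.072 over 18. Between young and old, the same-numbered pairs had 0.063, 0.132 and 0.064, above the differently numbered ones at -0.096 to 0.035. All same-numbered pairs with a treated library were negative. The numbers were not taken to pair samples, a question that these correlations do not settle. The replicate block alone gave 3 higher and 2 lower of the 37 genes between old and young, 0 and 0 with the inhibitor, and 2799 higher and 2783 lower over all genes. Depth limits Lig4 and Ercc2 most, which the stricter filter removed, leaving 35 of the 37 genes. No call among the 37 genes arose with the inhibitor under any of these settings.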
